A study of Homo sapiens with 8 samples.

Results

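The origins of the WT line are the sites at which short nascent strands were enriched in the HCT116 cells that the labels call WT, which carry no ORC deletion. The deposited WT list holds 30394 intervals, and the 30195 of them on chromosomes 1 to 22 and X were taken, with the WT reads of the counted interval that overlaps each one. HCT116 is a human colon cancer epithelial line, and no agent or time course enters the WT group. SNS-seq (sequencing of short nascent strands) was run on 8 samples, of which the 2 WT replicates are described here and the ORC1KO, ORC2KO and ORC5KO lines are not. Both replicates were merged in the deposited counts, so no value below has a replicate spread and no test was run; intervals cover counting error only, and copies of 1 molecule made by PCR may be among the reads.

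Replication of a human chromosome starts at many sites in each S phase. The origin recognition complex and its partners load the MCM helicase on DNA in G1, far more of it than is used, and kinases then fire a part of these sites. At a fired origin the short leading strands grow away from the start point on both sides, and SNS-seq purifies these RNA-primed strands, which an exonuclease spares, before sequencing them. Mapped origins of human cells are known to lie often near gene starts and near stretches of guanines, which can fold into G-quadruplexes (stacks of paired guanines held by loops).

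Strength is given as WT reads per kb of the counted interval. The 7 sequences below show what the extremes of that scale look like on the DNA. Each is 300 bases of hg38, forward strand, centred on the midpoint of the origin, in lower case with every run of 3 or more G or of 3 or more C in capitals. The first 4 were taken from the strongest origins and are all repeats, the next 2 are the strongest origins without a tandem repeat, and the last is among the 5 weakest.

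The strongest origin, chr22:19725001-19725828, lies in no annotated gene, 1.88 kb past the start of GP1BB, which encodes a platelet receptor subunit. It held 963 WT reads, or 1096 reads per kb (95% Poisson interval 1027 to 1167). Its 300 central bases (chr22:19725265-19725564) hold 9 runs of G and 0 runs of C, spread over a repeated unit.
chromosome 22 origin: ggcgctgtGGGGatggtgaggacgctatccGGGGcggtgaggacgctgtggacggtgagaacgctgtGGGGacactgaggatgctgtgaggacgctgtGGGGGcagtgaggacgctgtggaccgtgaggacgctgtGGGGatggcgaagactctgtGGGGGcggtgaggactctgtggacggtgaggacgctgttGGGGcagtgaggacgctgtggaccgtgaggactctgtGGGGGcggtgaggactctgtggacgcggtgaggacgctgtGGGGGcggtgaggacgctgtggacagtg

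The second, chr16:46394491-46395044, lies in no gene either and reached 1065 reads per kb (982 to 1153) from 608 reads. It is AT-rich, with 35.9% GC over the interval. Its central bases (chr16:46394618-46394917) hold 0 runs of G and 0 runs of C, and instead hold 12 copies of GGAAT, the pentamer of a human satellite repeat.
chromosome 16 origin: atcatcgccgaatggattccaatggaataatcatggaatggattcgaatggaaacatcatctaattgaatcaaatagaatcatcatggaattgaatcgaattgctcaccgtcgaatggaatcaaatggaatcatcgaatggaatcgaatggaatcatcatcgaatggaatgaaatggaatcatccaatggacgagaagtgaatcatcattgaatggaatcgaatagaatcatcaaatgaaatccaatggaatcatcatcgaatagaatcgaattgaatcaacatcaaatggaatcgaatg

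The third, chr6:168233893-168237957, is also the widest origin of the list, at 4065 bp, and held the most reads, 4269 (1035 reads per kb, 1004 to 1066). It lies in the lncRNA gene ENSG00000228361, and 11 runs of G stand in its central bases (chr6:168235775-168236074).
chromosome 6 origin: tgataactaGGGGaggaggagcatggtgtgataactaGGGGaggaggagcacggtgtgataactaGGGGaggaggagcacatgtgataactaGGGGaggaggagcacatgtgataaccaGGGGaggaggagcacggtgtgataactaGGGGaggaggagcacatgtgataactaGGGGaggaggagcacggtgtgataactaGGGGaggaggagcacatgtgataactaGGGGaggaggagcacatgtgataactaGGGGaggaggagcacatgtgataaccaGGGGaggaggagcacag

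An origin in an intron of PTPRN2, which encodes a receptor-type tyrosine phosphatase of secretory vesicles, lies at chr7:158147097-158149180 and held 1911 reads (911 reads per kb, 870 to 953). Its repeat is nearly perfect: 98.4% of bases equal the base 114 positions on. The gene lies on the reverse strand, so the 15 runs of C shown for the central bases (chr7:158147989-158148288) are runs of G on its coding strand.
PTPRN2 origin: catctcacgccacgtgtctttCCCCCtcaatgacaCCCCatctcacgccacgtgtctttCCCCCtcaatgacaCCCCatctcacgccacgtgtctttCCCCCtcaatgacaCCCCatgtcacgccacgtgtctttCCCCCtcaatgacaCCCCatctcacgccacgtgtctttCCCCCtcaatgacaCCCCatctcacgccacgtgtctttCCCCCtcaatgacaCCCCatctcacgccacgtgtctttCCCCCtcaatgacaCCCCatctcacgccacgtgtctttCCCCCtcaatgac

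The strongest origin without a tandem repeat lies at chr22:11066648-11067666, in the lncRNA gene ENSG00000279973, with 883 reads (802 reads per kb). At most 35.5% of bases around its midpoint equal the base a fixed 2 to 150 positions on. Only tandem repeats were scored, and copies elsewhere in the genome were not looked for, here or in the next origin. It holds 15 runs of G and 2 runs of C in its central bases (chr22:11067007-11067306).
chromosome 22 origin without a repeat: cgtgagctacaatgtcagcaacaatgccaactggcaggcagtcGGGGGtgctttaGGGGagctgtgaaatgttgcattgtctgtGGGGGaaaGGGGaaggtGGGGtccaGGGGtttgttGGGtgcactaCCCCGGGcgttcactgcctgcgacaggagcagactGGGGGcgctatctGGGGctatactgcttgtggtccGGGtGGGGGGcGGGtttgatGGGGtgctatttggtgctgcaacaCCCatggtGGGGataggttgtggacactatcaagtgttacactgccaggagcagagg

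The next of this kind, chr15:21261720-21262642, lies in no gene and reached 777 reads per kb from 737 reads. Here the balance is turned, with 19 runs of C and 2 runs of G (chr15:21262031-21262330), so that its guanines stand on the reverse strand.
chromosome 15 origin: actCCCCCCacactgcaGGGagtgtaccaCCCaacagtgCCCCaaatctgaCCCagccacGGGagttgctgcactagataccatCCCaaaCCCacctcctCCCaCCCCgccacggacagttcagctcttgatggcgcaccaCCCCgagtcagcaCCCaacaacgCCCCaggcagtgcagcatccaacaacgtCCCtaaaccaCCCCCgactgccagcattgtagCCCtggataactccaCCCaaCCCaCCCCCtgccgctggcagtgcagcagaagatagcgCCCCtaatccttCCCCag

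For comparison, the weak origin chr1:44389576-44390205, 15.3 kb before the start of RNF220, a ubiquitin ligase gene, held 99 reads, or 112 reads per kb (90.8 to 136). Its counted interval of 886 bp runs past the 630 bp of the origin, over which the same reads would make 157 per kb. It is 44.6% GC, and its central bases (chr1:44389741-44390040) still hold 7 runs of G and 0 runs of C.
chromosome 1 origin: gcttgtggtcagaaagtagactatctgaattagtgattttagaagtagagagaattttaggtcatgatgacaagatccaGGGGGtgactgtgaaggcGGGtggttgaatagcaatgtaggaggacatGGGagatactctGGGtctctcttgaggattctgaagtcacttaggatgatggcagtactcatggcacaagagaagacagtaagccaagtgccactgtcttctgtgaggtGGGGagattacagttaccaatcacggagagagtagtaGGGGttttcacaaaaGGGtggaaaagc

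Strength varied over a narrow range. The median origin held 231 reads per kb, with an interquartile range of 192 to 294, and the whole list ran from 106 to 1096 reads per kb, a factor of 10.3. From the 1st to the 99th percentile (139 to 617) the factor was 4.44. In reads, the median origin held 135, for which the Poisson interval is 113 to 160, and 4 origins held fewer than 50. The strongest 10% of counted intervals took 24.4% of the reads and the strongest 1% took 4.40%. The intervals were chosen by a peak caller, so the lower end of this scale is also the limit of what was listed as a peak.

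Origins were narrow, with a median of 525 bp and an interquartile range of 423 to 681 bp. The smallest was 275 bp and the widest 4065 bp. Wider origins were also the denser ones (Spearman rho 0.26 over 30195 origins, which share libraries and base composition). All 5 of the widest, 2639 to 4065 bp, had a tandem repeat, and their strengths ranged from 287 to 1035 reads per kb. The widest after the one on chromosome 6 lies at chr4:1426238-1429300 in no gene, where 891 reads made 287 reads per kb.

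**Figure D1:**
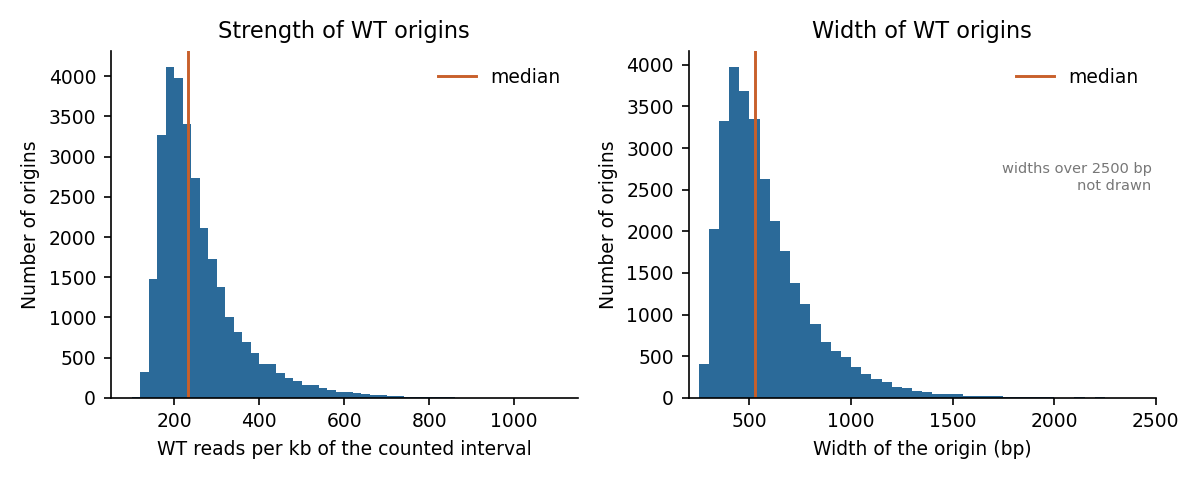
Number of WT origins by WT reads per kb of the counted interval (left) and by width in bp (right), with the median of each as a vertical line. Both have 1 peak and a tail to the right, with medians of 231 reads per kb and 525 bp.

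Among the 10 strongest origins, 3 lie on chromosome 16, 2 on chromosome 22 and 2 on chromosome 19. Repeats were the most common feature of this group: in 10 of 10, at least 50% of bases equalled the base a fixed number of positions on, for some period of 2 to 150 bases. The other members included an origin 0.637 kb past the start of NXNL2, a thioredoxin-like gene of photoreceptors, with 921 reads per kb, one in an intron of MED16, a Mediator subunit gene, with 888 reads per kb, and one 0.907 kb past the start of ZNF846, a zinc finger gene, with 887 reads per kb. A run of 9 origins on chromosome 16, chr16:46380663-46428913, held 3 of the 10. Its members ranged from 257 to 1065 reads per kb (median 841) with a median GC content of 36.2%, and 8 of the 9 carried at least 8 copies of GGAAT or ATTCC in 500 bp. Over the whole list such pentamer tracts were rare, in 98 origins (0.325%) against 0.0857% of 500-bp tiles of the genome.

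The 5 weakest origins, which ran from 106 to 115 reads per kb, were 43.0 to 52.2% GC, and 0 of 5 held a G-quadruplex motif. They include an origin in an intron of ASMTL, a gene of the pseudoautosomal region, and origins outside genes near PDE9A, RNF220 and ECT2. The lowest, chrX:1423498-1424147 in ASMTL, held 153 reads (106 reads per kb, 89.9 to 124). Their place on the scale rests in part on the length of the counted interval. It was 1.41 to 2.62 times the width of the origin in these 5, against 1.05 in the median origin. Were all reads to lie within the origin itself, the 5 would stand at 157 to 300 reads per kb, against a median of 260 on that scale. The one in ASMTL, with a counted interval of 1443 bp for an origin of 650 bp, would stand at 235.

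Tandem repeats were commonest in the strongest origins. Such a repeat (50% or more by the score above) was present in 3386 origins, 11.2%, against 0.790% of 11643 tiles. The score can rise with uneven base composition as well as with a repeated unit, and the part of each was not tested. Origins with a repeat had a median of 283 reads per kb, and the 26809 without had 227. The step was seen within classes of GC content: below 50% GC the medians were 211 with and 199 without a repeat, from 50% to 60% GC they were 262 and 228, and above 60% they were 367 and 276. From the weakest to the strongest of 5 groups of equal size by reads per kb, the share with a repeat was 7.23%, 6.66%, 7.93%, 11.3% and 22.98%, so it was about level in the lower 3 groups. Of the 100 strongest origins 65% had a repeat, and so did 2 of the 5 weakest, which were the lowest pair. How reads that align to several copies of a repeat, tandem or other, were placed, and how far that enters these values, was not tested.

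GC content moved with strength over all origins. The median origin was 54.8% GC, against 40% for the median tile of the genome, and GC content and reads per kb had a Spearman rho of 0.44 over 30195 origins. When the origins were ranked by reads per kb and divided into 5 groups of about 6039, the median GC content went from 49.8% in the weakest group through 52.5%, 54.4% and 56.7% to 61.2% in the strongest. The rise in strength stopped at high GC content: median reads per kb rose from 191 below 40% GC to 311 at 65% to 70%, and were 297 at 70% to 75% and 280 above 75%. GC content can also affect library preparation, and its part in these read counts was not tested.

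Other features were compared across the same 5 groups. Origins with the base composition of a CpG island (over 50% GC, with observed over expected CpG above 0.6) made up 6.57% of the weakest group and 22.3% of the strongest. Those within 1 kb of a protein-coding start made up 5.18% and 16.2%. Median width was 499, 477, 492, 532 and 675 bp from the weakest group to the strongest, so it rose in the upper groups alone. The median distance to the next origin went from 18918 to 10581 bp. Origins outside any gene made up 31.22% of the weakest group and 22.98% of the strongest.

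GC content peaked at the origin, on flanks that were GC-rich as well. Within 100 bp of the midpoint the strongest group reached 61.7% GC and fell to 52.5% at 2500 to 3000 bp, and the weakest group went from 51.0% to 44.1%. The 5 curves kept their order at both distances, so the flanks of strong origins were GC-richer too, and all 5 groups stayed above the 40% of the median tile.

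**Figure D2:**
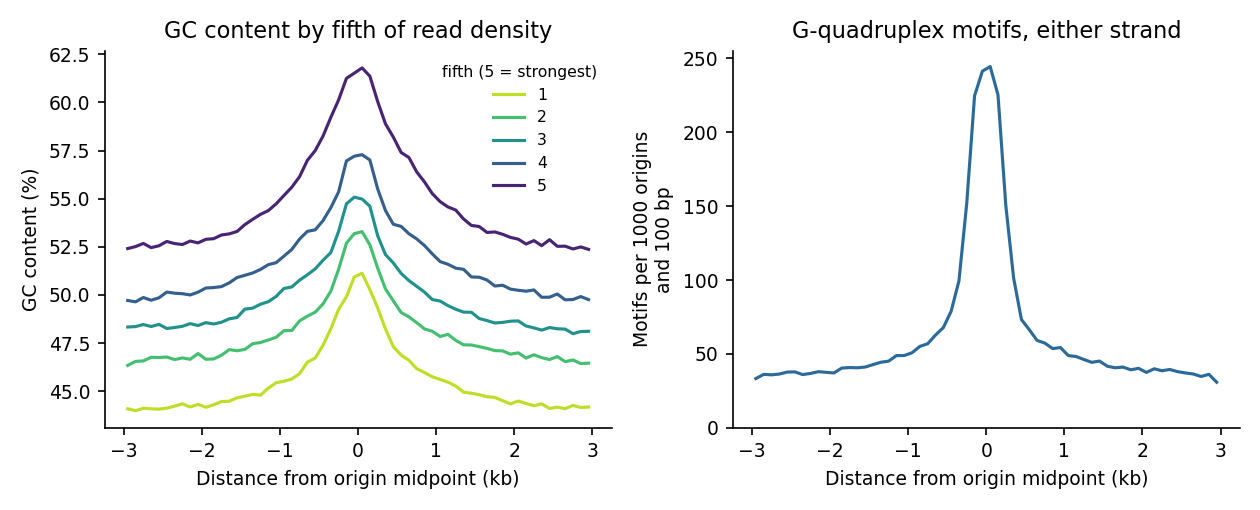
Left, GC content (%) against distance from the origin midpoint (kb), 1 line for each of 5 groups by reads per kb. Right, G-quadruplex motifs on either strand per 1000 origins and 100 bp. All 5 lines peak at 0, the strongest group at 61.7% and the weakest at 51.0%, and motifs peak at 243 against 35.5 in the outer flanks.

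G-quadruplex motifs were counted as 4 runs of 3 or more G with loops of 1 to 7 bases, or the same with C for the other strand, in 500 bp around the midpoint. A match is a description of the letters and not of a folded structure. Such a motif stood in 53.5% of origins (95% Wilson interval 53.0 to 54.1) and in 5.10% of 5821658 tiles of the same length, a ratio of 10.5. How far the exonuclease step and library preparation enter this share, and the motif and strand values below, was not tested. The motif was on the forward strand alone in 25.9% of origins, on the reverse strand alone in 25.2%, and on both in 2.45%.

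The ratio was smaller at high GC content and larger at low GC content. At 60% to 65% GC the motif stood in 69.3% of origins and 40.2% of tiles, and above 75% in 94.3% and 83.7%. At 45% to 50% GC the shares were 36.2% and 5.17%, and below 40% they were 45.2% of 887 origins and 1.62% of tiles. As ratios, origins over tiles, the values were 27.9 below 40% GC, 9.38 at 40% to 45% and 1.13 above 75%. The lowest class has no lower bound, so its origins and tiles need not be alike in GC content. Above 75%, the tile share of 83.7% leaves little room for a larger ratio. Origins with a motif had a median of 251 reads per kb and those without 213. Within GC classes the medians with and without a motif were 209 and 195 below 50%, 244 and 218 from 50% to 60%, and 295 and 262 above 60%. The motif was present in 37.0% of the weakest and 72.1% of the strongest of the 5 groups.

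The most extreme origins were exceptions. Only 2 of the 10 strongest held the motif, and in the G-rich repeats printed above the runs stand too far apart for loops of 1 to 7 bases. Where the repeat score was 80% or more, 27.5% of 385 origins held it. At a score of 50% to 80% it was 51.8% of 3001 origins, at 40% to 50% it was 71.8% of 3444, and under 40% it was 51.5%. Among these classes the low share was thus that of the 385. Of the 10 strongest, though, the PTPRN2 origin alone scored 80% or more (98.4%).

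Guanine and cytosine were unevenly split between the strands of WT origins. The asymmetry was measured as the difference of the G and C counts over their sum, without its sign, in 500 bp. Its median was 0.339 in origins (interquartile range 0.243 to 0.429) and 0.0864 in 11637 tiles (0.0412 to 0.146), and 60.7% of origins but 3.94% of tiles reached 0.3. The gap was present at each GC content examined: at 45% to 50% GC the medians were 0.369 in origins and 0.0843 in tiles, and above 60% they were 0.314 and 0.0899. Over whole intervals it hardly moved with strength, with medians from 0.336 to 0.355 in the 5 groups. The sequences from chromosomes 22, 6, 7 and 15 above show the same in letters: runs of G on 1 strand with few or none on the other.

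The motif also had a side. In 16379 origins with a motif on 1 strand within 500 bp of the midpoint, the motif lay 5′ of the midpoint, read along its own G-rich strand, in 66.2% (65.5 to 67.0), with a median offset of -77.5 bp. The share was nearly the same for motifs on the forward strand (66.2% of 8275) and the reverse strand (66.3% of 8104), and it lay between 65.05% and 66.85% in all 5 groups by strength.

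The strand of the motif was set beside the strand of transcription. After a protein-coding start, within 1 kb, the motif stood on the coding strand in 65.6% of 1162 origins (62.8 to 68.3), and in 59.4% of tiles with a motif. Before a start the share was 44.2% of 764 origins (40.8 to 47.8), and 48.7% of tiles. In introns it was 53.5% of 7001 origins (52.4 to 54.7) and 49.3% of tiles. Coding exons stood apart: the motif was on the coding strand in 24.1% of 340 origins (19.9 to 28.9), and in 47.7% of 7824 tiles. These 340 origins lie in 320 genes; the share was 24.7% with 1 origin kept per gene and 23.4% of 273 origins without chromosome 19. Among exon origins with a motif on 1 strand, therefore, the motif was mostly on the template strand. Among such origins just after a start, it was mostly on the coding strand.

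Relative to the bases available, origins were densest near gene starts, although most lay elsewhere. Each origin was placed once, by its midpoint, in the order start, coding exon, UTR, intron, lncRNA gene and no gene (GENCODE release 44). The 2920 origins within 1 kb of a protein-coding start were 9.67% of the list on 1.26% of the bases, a ratio of 7.68. Coding exons held 2.10% on 1.09% of the bases, and UTRs 2.38% on 1.41%. Introns held most origins, 47.0%, on 41.4% of the bases. LncRNA genes alone held 10.3% on 14.9%, and DNA outside genes 28.6% on 39.9%. With genes counted as whole bodies, 58.2% of midpoints lay in a protein-coding gene.

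Among these classes, strength was also greatest within 1 kb of a start, at a median of 269 reads per kb. The medians were 257 in coding exons, 242 in UTRs, 230 in introns, 222 in lncRNA genes and 224 outside genes. The interquartile ranges overlapped throughout (213 to 353 at starts and 189 to 280 outside genes). Base composition moved with this order: origins at starts were 63.9% GC in the median and those outside genes 52.7%. By GC content, the medians at starts and elsewhere were 210 and 199.7 reads per kb below 50%, 242 and 229.7 from 50% to 60%, and 285 and 287 above 60%. By distance, strength was uneven around the start. The medians were 266 at 1000 to 500 bases before it and 277 in the last 500. They were 254 in the first 500 bases after it, 282 in the next 500 and 265 at 1 to 2 kb.

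Each base of the genome was also placed by its distance from the nearest protein-coding start, and origins were counted per Mb of the bases at each distance. The density was 11.2 per Mb at 50 to 20 kb before a start and 88.1 in the last 500 bases before it. It was highest, at 98.3, in the first 500 bases after the start and stood at 93.3 in the next 500. Beyond this it fell to 37.4 at 1 to 2 kb and 13.2 at 20 to 50 kb, and 50 kb or more from any start it was 6.21 per Mb. The fall was not symmetrical, since 500 to 1000 bases before the start the value was 37.02. Within 1 kb of the start, 3066 of 19970 protein-coding genes (15.4%) had an origin. Most origins were still far from one, with a median distance of 28.9 kb (interquartile range 8.01 to 89.0 kb). Of 15800 midpoints placed in 11618 genes of 20 kb or more, 16.6% lay in the first of 10 equal parts of the body, 11.1% in the last, and 8.63% to 9.83% in each of the other 8.

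**Figure D3:**
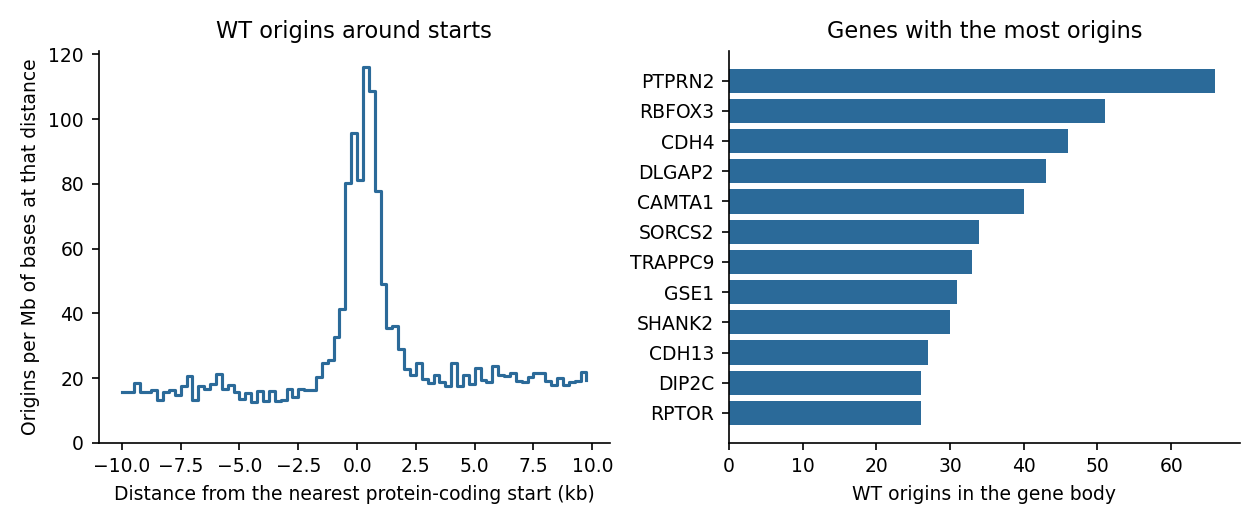
Left, WT origins per Mb of the bases at each distance (kb) from the nearest protein-coding start, in steps of 250 bases, negative before the start. Right, number of WT origins in the bodies of the 12 genes with the most. Origins peak 250 to 500 bases after the start, at 116 per Mb, and PTPRN2 leads the genes with 66.

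The spacing of the list has a limit that bears on the values above as well as on all that follows. Every WT origin had another within 26017 bp, edge to edge, and 0 lay farther off, although 434 had their nearest neighbour at 25 to 26 kb and 480 at 24 to 25 kb. The study grouped peaks into clusters, or initiation zones, where neighbours stood nearer to each other than the median gap of all its peaks. The deposited WT list thus holds no isolated peak at this limit, which could mean that only peaks in such clusters were kept. Whether isolated peaks were left out was not tested. A stretch or gene without a listed origin may still hold a peak that stands alone. Absence from the list is reported below in that sense only. Densities count listed origins alone, and how far the limit enters their differences between chromosomes, windows and genes was not tested.

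Along the chromosomes, the distance between the midpoints of neighbouring origins had a median of 15.0 kb over 30172 pairs, with an interquartile range of 7440 to 33019 bp. The mean was 97.8 kb, since a long tail of stretches between clusters follows: 4494 pairs lay over 100 kb apart and 545 over 1000 kb. At the short end, 2.38% of pairs lay under 1 kb apart, 14.7% under 5 kb and 34.8% under 10 kb. The nearest neighbour on either side was at a median of 7904 bp from edge to edge.

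**Figure D4:**
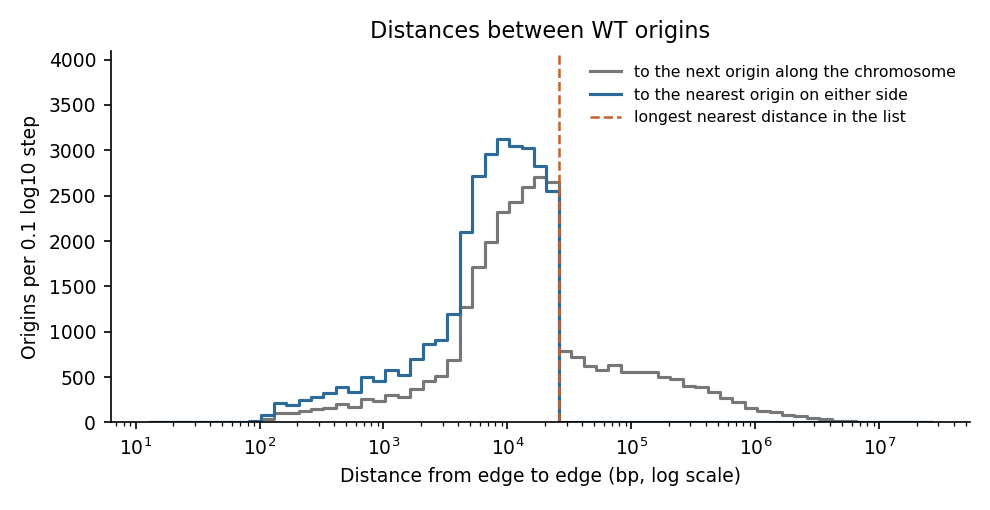
Number of WT origins by distance in bp, edge to edge on a log scale, to the next origin along the chromosome (grey) and to the nearest on either side (blue). The nearest distance stops at 26017 bp (dashed line), and the next distance runs on past 10 Mb.

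Origins joined at that limit formed 8317 zones, which cover 8.78% of the sequence and have a median span of 20.7 kb (interquartile range 10.97 to 35.71 kb). Small zones were the rule, as 4275 held 2 origins and 1732 held 3. The 389 zones of 10 or more held 20.7% of the origins, and the largest held 63. Origins of these large zones were stronger, at a median of 278 reads per kb (223 to 362) against 208 (179 to 252) in zones of 2, and GC-richer, at 59.7% against 50.6%. Their share near starts was 10.98% against 9.35%, and 63.4% against 47.8% held a G-quadruplex motif.

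Of the 5 largest zones, 4 lie on chromosome 19. The first, chr19:675954-1193343, holds 63 origins in 517 kb at a median of 375 reads per kb, and runs through STK11, a tumour suppressor kinase, POLR2E, an RNA polymerase subunit, GPX4, which reduces lipid peroxides, and the neutrophil granule genes AZU1 and PRTN3. The second, chr19:55207527-55714047, holds 61 origins, among them those in U2AF2, a splicing factor, and KMT5C, a histone H4 methyltransferase. In the next, chr19:48279352-48762630, the genes that hold some of the 59 origins include FUT1 and FUT2, which make blood group antigens, and GRIN2D, a glutamate receptor subunit. A zone of 57 origins, chr19:1354567-1884113, includes the transcription factor TCF3 and MBD3, a subunit of the NuRD complex. The zone off chromosome 19, chr1:1033276-1498888, holds 55 origins at 350 reads per kb, some of them in AGRN, which organises the neuromuscular junction, DVL1, a Wnt signal transducer, and INTS11, the nuclease of Integrator.

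Joined instead at the median distance of 15031 bp, 23234 origins (76.9%) fell in 8148 clusters. The largest, chr1:1115010-1356824, holds 34 origins in 242 kb, at ACAP3, DVL1 and their neighbours. Next came chr19:50626282-50756181 with 26 origins in 130 kb at SHANK1, a scaffold of excitatory synapses, and SYT3, a synaptotagmin. A cluster of 24 at chr7:407790-577221 covers PDGFA, a growth factor, and PRKAR1B, a regulatory subunit of protein kinase A. One of 23, chr18:14256194-14334078, lies in the lncRNA gene ENSG00000283294, in 77.9 kb, and has the lowest GC content of the 5 (52.8%). Another of 23, chr19:50376586-50512006, holds POLD1, the catalytic subunit of DNA polymerase delta, SPIB, a lymphoid transcription factor, and NR1H2, an oxysterol receptor.

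Neighbouring origins had similar strength only when they were close. Between an origin and the next, reads per kb had a Spearman rho of 0.73 over 1859 pairs under 2 kb apart (pairs in 1 counted interval left out) and 0.68 over 2457 pairs at 2 to 5 kb. It was 0.29 at 5 to 10 kb, 0.22 at 10 to 20 kb, 0.19 at 20 to 50 kb and 0.13 at 50 to 200 kb. Farther apart it was 0.01 over 2306 pairs at 200 to 1000 kb and -0.03 over 545 pairs beyond. The pairs share libraries, and close ones also share base composition and counted flanks.

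The longest stretches without a listed origin and without an assembly gap of 50 kb or more were AT-rich. The first, chrX:82732469-104106998, spans 21.4 Mb at 37.1% GC, with 81 protein-coding genes, among them DIAPH2, a formin, and the protocadherin gene PCDH11X. The second, chr4:58668242-67386087, is 8.72 Mb long at 35.0% GC with 3 genes, ADGRL3, EPHA5 and TECRL. Another pair lies on chromosome X, chrX:28506475-37028249 with DMD, the dystrophin gene, and chrX:74293678-82728166 with ATRX, a chromatin remodeller. The last of the 5, chr21:17459178-25578257, holds NCAM2, a neural adhesion gene, and 5 others. Chromosome X had 7 of the 20 longest.

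Origin density differed 22.4-fold between chromosomes, and 8.37-fold between autosomes. Over all 23 it was 10.4 origins per Mb of sequence. Chromosome 19, the most gene-dense, had 41.4 per Mb, followed by chromosomes 22 (27.3), 17 (25.1), 20 (18.8) and 16 (17.9). At the low end were chromosomes 4 (4.95) and 13 (5.45), and chromosome X was lowest with 1.85. The spacing inside the clustered list had medians from 10.1 kb on chromosome 19 to 18.1 kb on chromosome 18. The limit of the list holds these medians down on every chromosome, so their range cannot be set against that of the densities. Zones on chromosome 19 averaged 7.23 origins, against 2.83 on chromosome 13.

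Gene density and GC content moved with these values: over the 23 chromosomes, which differ in both at once, the Spearman rho of origins per Mb was 0.80 with protein-coding genes per Mb and 0.94 with GC content. Chromosome X was off this line, since it has 5.55 genes per Mb, more than chromosome 8 (4.85 genes and 11.3 origins per Mb) or chromosome 2 (5.18 and 8.22). Of its 287 origins, 42 (14.6%) lie in the first 3 Mb, next to and within the pseudoautosomal region, and beyond that the density was 1.61 per Mb. DNA copy number of chromosome X was not analysed, and its part in this density and in the long stretches above was not tested.

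In 2921 windows of 1 Mb, the median was 5 origins (interquartile range 2 to 13). None were listed in 707 windows (24.2%), and 366 windows (12.5%) held 50% of all origins. The fullest was chr19:50000001-51000000 with 114 origins and 31 protein-coding starts, with SHANK1 and MYH14, a myosin. It was followed by chr19:1000001-2000000 with 105, by chr17:79000001-80000000 with 94, and by chr19:49000001-50000000 and chr8:142000001-143000000 with 91 each. The chromosome 17 window has 8 protein-coding starts, the fewest of the 5, and is filled by RBFOX3, a neuronal splicing factor, CANT1 and TBC1D16.

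Origins were dense near chromosome ends. In windows whose nearer edge lay under 1 Mb from an end the density was 36.9 per Mb, and from 1 to 2 Mb it was 41.0. It then fell to 26.4 at 2 to 5 Mb, 17.2 at 5 to 10 Mb, 11.99 at 10 to 20 Mb, 8.43 at 20 to 50 Mb and 5.51 beyond. Mean GC content of the windows fell alongside, from 49.4% at 1 to 2 Mb to 39.1% beyond 50 Mb. By GC content alone, density rose from 0.890 per Mb below 36% to 6.92 at 40% to 42% and 55.9 above 50%. The share of windows with no origin went from 66.5% to 0. By protein-coding starts it rose from 2.14 per Mb in windows with 0 starts to 34.3 in windows with 21 or more. Over windows, the Spearman rho of the count was 0.83 with GC content and 0.61 with starts.

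Strength also differed between chromosomes once GC content was taken into account. Each origin was set against the median of all origins in its step of 2.5% GC, on a log2 scale. The median difference was 0.16 on chromosome 17, 0.12 on chromosome 19, 0.12 on chromosome 8 and 0.08 on chromosome 16, and it was -0.17 on chromosome X and -0.11 on chromosome 13. Single blocks of 10 Mb stood farther out. Of 234 blocks with 30 or more origins, 14 exceeded 0.2, all of them on chromosomes 8, 10, 16, 17, 19, 21 and 22. The highest was the end of chromosome 8q, chr8:140000001-150000000, at 0.41 over 335 origins with a median of 344 reads per kb. Next were chr16:80000001-90000000 at 0.33 over 419 origins, chr10:100000001-110000000 at 0.32 over 204 and chr21:10000001-20000000 at 0.31 over 39. Chromosome 21 also had chr21:1-10000000 at 0.22 over 33, and chr22:50000001-60000000 stood at 0.27 over 51. On chromosome 17 the 2 blocks from 70 Mb on both stood at 0.30. The same chromosome could hold blocks far out on both sides, as chr10:130000001-140000000 stood at -0.28 over 90 origins. The lowest block was chrX:150000001-160000000 at -0.35 over 41. DNA copy number of this line was not analysed here.

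**Figure D5:**
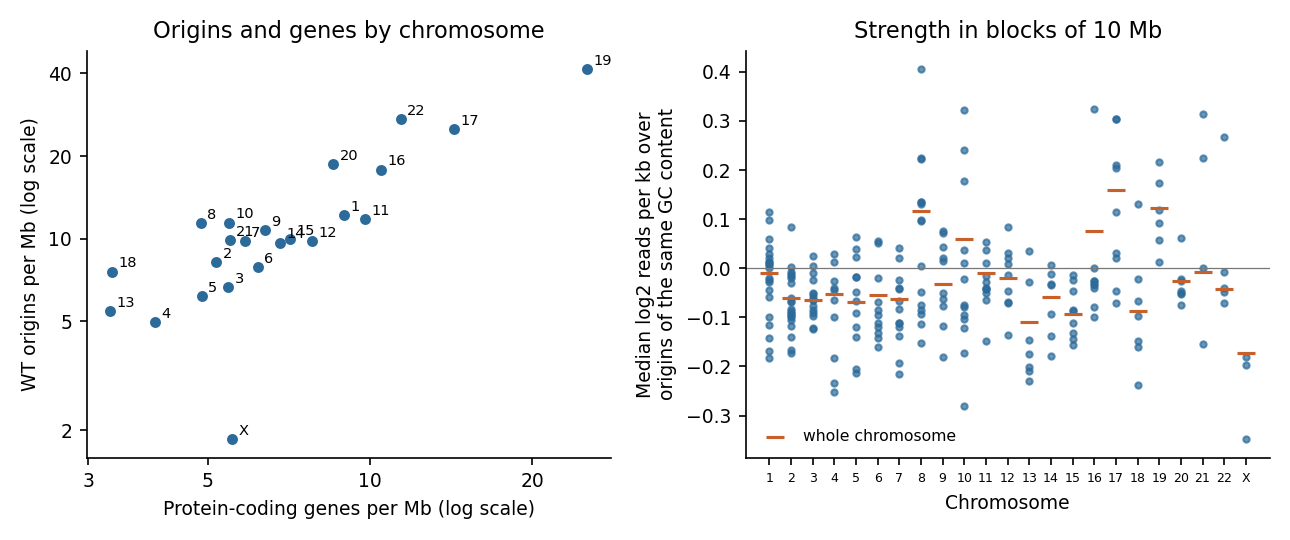
Left, WT origins per Mb against protein-coding genes per Mb for 23 chromosomes, both on log scales. Right, median log2 reads per kb relative to origins of the same GC content for each block of 10 Mb (points) and each chromosome (dashes). Chromosome 19 leads at 41.4 origins per Mb, X lies below chromosomes of like gene density at 1.85, and the highest block is on chromosome 8 at 0.41.

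Of 19970 protein-coding genes, 7383 (37.0%) overlapped a WT origin by at least 1 bp. There was 1 origin in 2791 of them, 10 or more in 189, and 20 or more in 28. The share with an origin rose with length, from 22.2% of genes under 10 kb to 48.0% at 100 to 200 kb and 59.4% at 500 to 1000 kb, and was 56.3% over 1000 kb. Origins per 100 kb went the other way, from 5.61 to 1.28 and 0.63, and were 0.34 in the 71 genes over 1000 kb. Over all gene bodies the value was 1.42.

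PTPRN2 led the genes by number of origins. It had 66 origins in 1049 kb, a median of 11.6 kb apart, at 258 reads per kb and from 136 to 911. RBFOX3 had 51 in 522 kb, at 308 reads per kb, and CDH4, a cadherin of the retina and brain, had 46 in 688 kb, at 231. DLGAP2, a postsynaptic scaffold gene, had 43, and CAMTA1, a calmodulin-binding transcription activator, had 40. SORCS2, a sorting receptor for neurotrophins, had 34. TRAPPC9, a vesicle tethering subunit, had 33, and GSE1, a subunit of a histone deacetylase complex, had 31, with the second highest median strength of the 12 (307 reads per kb). SHANK2, another synaptic scaffold, had 30, and CDH13, a cadherin without a membrane span, had 27 at the lowest GC content of the 12 (48.3%). DIP2C and RPTOR, the substrate adaptor of mTORC1, had 26 each. In every one of the 12, at most 1 origin lay within 1 kb of a protein-coding start.

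These genes are long and lie near chromosome ends: 11 of the 12 lie within 10 Mb of one, against 74 of the 510 genes of 400 kb or more (14.5%). Among those long genes the density was 1.65 origins per 100 kb near an end and 0.41 elsewhere. PTPRN2 and RBFOX3 differed in their sequence. Of the 66 origins of PTPRN2, 39 held a tandem repeat and 45.5% a G-quadruplex motif, whereas 7 of the 51 in RBFOX3 held a repeat and 62.7% a motif.

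Per length, among genes of 50 kb or more, SHANK1 led with 17 origins in 60.5 kb, or 28.1 per 100 kb. They lay a median of 2.33 kb apart, ran from 246 to 645 reads per kb with a median of 442, and 94.1% held a G-quadruplex motif. Next were PLEC, which encodes the cytoskeletal linker plectin, with 19.5 per 100 kb, ADGRB1, an adhesion receptor gene of brain, with 18.8, and CACNA1H, a T-type calcium channel gene, with 17.5. SBNO2, a transcriptional co-regulator gene, had 16.5 per 100 kb, and all 11 of its origins (100%) held the motif. UNC13A, which primes synaptic vesicles, had 16.1, SRCIN1, an inhibitor of Src, 15.8, SPEG, a muscle kinase, 15.3, SLC9A3, the sodium-proton exchanger of the gut brush border, 14.8, and TRPM4, a cation channel gene, 14.8. Of the 10, 4 lie on chromosome 19. TRPM4 had the weakest origins of these, at a median of 212 reads per kb, and motifs in 25%.

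Long noncoding RNA genes had fewer. ENSG00000283294 on chromosome 18 led with 23 origins in 117 kb, followed by LINC00511 with 18, USP2-AS1 with 16, LINC01237 with 14 and SOX9-AS1, on the strand opposite SOX9, with 13.

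The 10 longest protein-coding genes without a listed origin span 1.50 to 2.30 Mb. They include PTPRD, a receptor phosphatase of synapses (2299 kb), DMD (2242 kb), DLG2, a postsynaptic scaffold (2173 kb), LRP1B, CTNNA3, PCDH15, ROBO2, PDE4D and FHIT (1504 kb), which spans a common fragile site. Of the 10, 1 lies within 10 Mb of a chromosome end.

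Lists of genes with a shared role are given as counts, with no test. The lists were set beside all protein-coding genes (37.0% with an origin, 1.42 per 100 kb) and beside genes of like length. Among 22 genes of colon epithelium, with a median length of 22.2 kb, 12 (54.5%) held 45 origins, at 4.45 per 100 kb, against 38.5% and 2.88 per 100 kb for all genes of 10 to 50 kb. With so few genes no difference is read from these shares. EPHB2, a receptor that positions cells along the crypt, had 19 of the 45, at a median of 216 reads per kb, and HNF4A, a transcription factor of the gut, had 4. CDH17, the intestinal cadherin, had 4. SOX9, a crypt transcription factor, had 3 within 5.40 kb, of 455, 202 and 158 reads (422, 379 and 438 reads per kb), all well above the median origin. The block of 10 Mb around SOX9, chr17:70000001-80000000, was high as a whole, at a median of 292 reads per kb over 420 origins. LGR5, the stem cell receptor, was the longest without one (147 kb).

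Of 24 genes mutated or altered in colorectal cancer, 14 (58.3%) held 34 origins, at 1.55 per 100 kb, close to the 1.42 over all gene bodies. Their median length was 75.8 kb, and of all genes of 50 to 100 kb 40.4% held an origin, at 1.67 per 100 kb. TCF7L2, the Wnt transcription factor, had 8 at a median of 307 reads per kb, and AXIN2, a Wnt feedback inhibitor, had 4 at 403. Their blocks of 10 Mb stood above origins of the same GC content, at 0.24 and 0.20 on the log2 scale. CTNNB1, the Wnt effector gene, TGFBR2, a TGF-beta receptor gene, and BRAF, a kinase gene, had 2 each. Neither APC, the brake on Wnt signalling (139 kb), nor FBXW7, a ubiquitin ligase gene (216 kb), had a listed origin.

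Of 28 genes that act at origins themselves, with a median length of 30.4 kb, 10 (35.7%) held 15 origins, at 1.34 per 100 kb. All gene bodies together stood at 1.42 per 100 kb, and genes of 10 to 50 kb at 38.5% and 2.88 per 100 kb. CDC45, a part of the moving helicase, and TICRR, which helps to load it, had 3 each, MTBP, the partner of TICRR, had 2, and ORC1, CDC6, CDT1, MCM5, MCM7, RECQL4 and GINS3 had 1 each. The origin in RECQL4, a helicase gene, was the strongest of these at 544 reads per kb. It lies in the highest of the blocks above, chr8:140000001-150000000, where the median was 344. ORC2, ORC3, ORC4, ORC5 and ORC6 had none listed, and ORC4 was the longest of these (91.2 kb).

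Of 24 very long neuronal genes, 11 (45.8%) held 90 origins, at 0.23 per 100 kb. All genes over 1000 kb stood at 56.3% and 0.34 per 100 kb, so a low density goes with this length. PTPRN2, with 66 origins in 1049 kb, is not among the 24, so the density of the list depends on the genes chosen. Of the 90 origins, CDH13 had 27, RBFOX1, a splicing factor gene of 2474 kb, 15, CSMD1 12, and OPCML and DAB1 8 each, while PTPRD and 12 others had none. Of 25 housekeeping genes, which are short (median 18.7 kb), 5 (20%) held 6 origins, at 0.78 per 100 kb, against 38.5% and 2.88 for all genes of 10 to 50 kb. YWHAZ, a 14-3-3 protein gene, had 2, at 471 reads per kb, and ACTB, ALDOA and UBB had 1 each, while GAPDH, EEF1A1 and RPLP0 had none listed. Of 416 olfactory receptor genes, which encode odorant sensors of the nose, 9 (2.16%) held 12 origins, at 0.43 per 100 kb. Their median length was 2.45 kb, and of all genes under 10 kb 22.2% held an origin, at 5.61 per 100 kb. OR10H1, OR2M3 and OR1F1 had 2 each.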

How the data were processed

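SNS-seq of the WT line was read from the deposited WT origin list, for which the authors called MACS2 peaks on hg38 in each of 2 replicates and kept peaks found in both, and from the deposited count table of WT and ORC5KO, whose unnormalized counts merge the replicates. Trimming was with Trim Galore 0.6.4, per the labels. The counting tool, the treatment of duplicates and of reads with several alignments are not given in the sources used here. The table holds 6878409 WT reads in 46722 rows, and 30062 rows with a WT origin hold 5286635 of them. Each origin overlaps 1 row, 29930 are alone in it, and the other 265 share its reads per kb; for 29.0% of origins the row has the same bounds. The deposited counts have no column for a single sample, and the columns of the knockout lines were not used.

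Positions were compared with GENCODE release 44 and the hg38 sequence in Python 3.11.15 with numpy 2.4.6, pandas 2.3.3 and scipy 1.17.1, with gene bodies spanning all annotated transcripts. Tiles are consecutive 500-bp windows without N; repeat scores and strand asymmetry used every 500th. Windows of 1 Mb needed 50% of known bases. Intervals are 95% (Poisson for reads, Wilson for shares). Named genes and regions were the highest or lowest by fixed ranks: the 10 strongest and 5 weakest (1 origin per row, 100 reads for the strongest) and 5 widest origins, the 5 largest clusters, stretches and windows, and the 12, 10 and 10 genes with the most origins, the most per 100 kb and none. Some members that the ranks and lists name are not reported here. Members and lists were chosen with earlier results of these data known. Zones at the limit of the list, blocks of 10 Mb, repeat scores and strand measures were added after the data were seen. The scripts were tested on simulated data.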

Additional observations from a re-analysis of the deposited data

Results flagged for a closer look

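The WT list also holds 199 intervals outside chromosomes 1 to 22 and X, which no comparison above used. Of these, 2 are listed on chromosome Y and 197 on 41 unplaced or alternate contigs. Their median was 300 reads per kb (interquartile range 229 to 453), above the 231 of the other origins.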

How the results depend on the processing

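No paired analysis was possible because the deposited counts merge the 2 WT replicates and no result comes from a test. Of 26 alternatives over 10 results, 5 stayed within the 95% interval of the value reported and 21 left it; those intervals are narrow, and 4 of the alternatives were added after seeing the data. The median strength of 231 reads per kb was 260 per kb of the WT interval, 237 from the table of WT and ORC1KO, and 227 without tandem repeats. The strongest 10% held 27.4% of reads when ranked by reads, and 24.5% with either other table. The median distance was 14438 bp from edge to edge and 16138 bp with origins under 1 kb apart joined. The share in clusters was 57.7% at 10 kb, 43.6% with at least 3 origins and 100% at the limit of the list, so it rests on the distance chosen. Density was 9.96 per Mb of full length and 9.21 without repeats. The windows that hold 50% of origins were 11.4% at 500 kb and 15.9% at 5 Mb. Genes with an origin were 40.8% with 2 kb added, 35.6% by midpoint and 27.6% with wider origins only. Any overlap put 59.9% of origins in genes. The motif share was 73.5% with loops of 1 to 12 and 56.5% over the interval. At the median of 135 reads the Poisson interval is 113 to 160, so smaller differences between single origins are not resolved at this depth.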
